A study of Arabidopsis thaliana with 12 samples.

Results

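CHLM and AT1G74470 each code for an enzyme of chlorophyll synthesis. CHLM is magnesium-protoporphyrin IX methyltransferase, and AT1G74470 is annotated as geranylgeranyl reductase. Each is the single annotated gene of 1 probe, so they are 2 of the 691 genes that a single-gene probe names on this array of 3439 probes. They were chosen by the gene their probe is annotated to, without use of a measured value, although with earlier results of these data known. The samples were wild-type Arabidopsis thaliana plants of the ecotype Columbia 0, a common laboratory strain, 6 samples at 4 weeks of age and 6 at 2 weeks. Total RNA was measured on expression arrays, and no treatment or transgene is labelled. The labels give neither the organ nor how many plants a sample holds, and nothing says that the 6 samples of an age came from separate plants, so the p-values measure the spread between these samples, which may be technical. None of the 8 root, 8 flower and 6 senescence marker genes looked up was the single gene of a probe (0 in each list), so the labels could not be set against organ markers.

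Chlorophyll is made in the plastid from glutamate, by way of aminolevulinic acid and a series of porphyrins that lead to protoporphyrin IX. Magnesium chelatase then inserts the magnesium ion, and CHLM transfers a methyl group from S-adenosylmethionine to the magnesium porphyrin, an early step of the branch that leads to chlorophyll and away from heme. Geranylgeranyl reductase acts late in the pathway and on the side chain. It reduces the geranylgeranyl group to the phytyl group, the hydrophobic tail of chlorophyll, and the same product also feeds the synthesis of tocopherols and phylloquinone.

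The deposited intensities run on a linear scale from 0 to 100, and the arrays were not on a common level. Array medians lay between 0.390 and 0.445 at 4 weeks and between 0.0946 and 0.116 at 2 weeks. Between 421 and 471 probes of an array stood at exactly 0 at 4 weeks, and between 557 and 694 at 2 weeks. Both chlorophyll genes were measured above 0 in all 12 samples. Levels are therefore given as deposited and after quantile normalization, which gives every array the same distribution of values, and their ranks within each array are given as well. Level differences between the probes of different genes carry no meaning here, and the probes are compared by their change with age.

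AT1G74470, the geranylgeranyl reductase gene, fell with age. In the deposited intensities it lay between 3.60 and 5.54 in the 6 samples at 2 weeks, with a median of 4.40. At 4 weeks it lay between 1.59 and 2.07, with a median of 1.69. The 2 ages did not overlap, and the lowest 2-week sample stood well above the highest 4-week sample. After quantile normalization the values ran from 3.54 to 5.19 at 2 weeks, with a median of 4.03, and from 1.25 to 2.04 at 4 weeks, with a median of 1.35. Again the ages did not overlap. Mean normalized intensity went from 4.27 ± 0.773 at 2 weeks to 1.53 ± 0.343 at 4 weeks (SD, n = 6 each). In the limma fit over all probes, the change was -1.49 on the log2 scale (SE 0.17), a 2.81-fold fall with an adjusted p of 6.71e-06. Across the array, 31.1% of the 2961 tested probes were called lower at 4 weeks and 33.6% higher, so a call by itself was common. The share of tested probes whose ages did not overlap was not counted, so lack of overlap is given here and below as a description. A more negative change than that of AT1G74470 was found in 14.9% of the tested probes. In bulk RNA such as this, fewer cells of a type and less of the transcript per cell cannot be told apart.

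CHLM, the methyltransferase gene, changed less, and its direction depended on the scale. In the deposited intensities it was higher in every 4-week sample. It lay between 0.508 and 0.631 at 4 weeks, with a median of 0.582, and between 0.280 and 0.377 at 2 weeks, with a median of 0.359. After quantile normalization the order of the ages was the opposite, again without overlap. The normalized values ran from 0.307 to 0.417 at 4 weeks, with a median of 0.378, and from 0.506 to 0.679 at 2 weeks, with a median of 0.624. The means were 0.375 ± 0.0428 (SD, n = 6) at 4 weeks and 0.602 ± 0.0756 at 2 weeks. The limma log2 fold change was -0.68 (SE 0.12, adjusted p = 3.30e-04), a 1.61-fold fall. In the deposited values it was 0.77 (SE 0.12, limma adjusted p = 6.34e-05), a 1.71-fold rise. The deposited values as a whole were higher at 4 weeks, by a median of 1.82 on the log2 scale, with 75.7% of 2966 tested probes called higher and 11% lower. Less that median, the change of CHLM in the deposited values was -1.05 and that of AT1G74470 was -3.16. Of the tested probes, 29.7% had a more negative normalized change than CHLM.

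**Figure D1:**
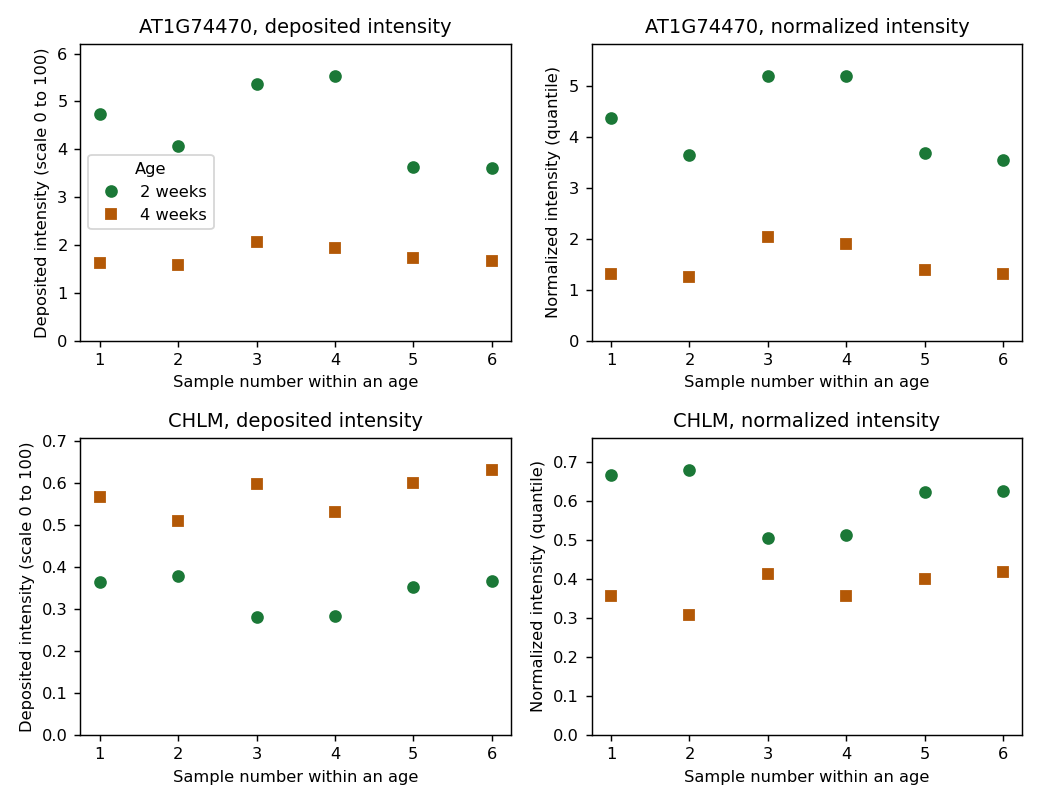
Intensity of AT1G74470 (top) and CHLM (bottom) in each of the 12 samples, as deposited on a scale of 0 to 100 (left) and after quantile normalization (right), with the sample number within an age on the horizontal axis, circles for 2 weeks and squares for 4 weeks. AT1G74470 is lower in all 6 samples at 4 weeks on both scales, whereas CHLM is higher at 4 weeks as deposited and lower after normalization.

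The rank of a probe among all probes of its array needs no scaling, and both genes lost rank with age. Quantile normalization sets each value by this rank, so the ranks restate the normalized values and are no separate evidence of direction. CHLM stood at percentile 73.5 to 81.7 of its array at 2 weeks and at percentile 56.2 to 66.8 at 4 weeks. Its mean percentile fell by 15.3 points (SE 2.25), from 78.2 ± 3.66 (SD, n = 6) to 62.9 ± 4.12. AT1G74470 stood at percentile 97.3 to 98.0 at 2 weeks and 91.4 to 95.4 at 4 weeks. Its mean percentile fell by 4.60 points (SE 0.71), from 97.6 ± 0.335 to 93.0 ± 1.71, and its place near the top of the scale bounds how far rank can show a change. Both falls had an exact two-sided permutation p of 0.00216, the smallest that 6 against 6 samples can give, and were seen for each of the 6 sample numbers. Averaging adjacent sample numbers leaves 3 values an age and an exact p of 0.1, below which such a design cannot go.

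The share of the summed array signal went different ways for both genes. CHLM took 0.0174% ± 0.00142 (SD, n = 6) of the signal at 4 weeks and 0.0116% ± 0.00165 at 2 weeks. AT1G74470 took 0.0538% ± 0.00734 at 4 weeks and 0.155% ± 0.0291 at 2 weeks. Set against the array median instead, CHLM was lower at 4 weeks, at 1.39 ± 0.164 times the median against 3.17 ± 0.631 at 2 weeks. AT1G74470 went from 41.8 ± 7.79 times the median at 2 weeks to 4.31 ± 0.683 at 4 weeks. The direction for AT1G74470 was thus the same against either yardstick, and that for CHLM was not.

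Whether both genes changed by the same amount was tested with the log2 ratio of AT1G74470 to CHLM within each array, in which any single scaling factor of an array cancels. This ratio ran from 3.30 to 4.29 in the 2-week samples and from 1.39 to 1.87 in the 4-week samples, without overlap. Its mean fell by 2.10 (SE 0.20, exact two-sided permutation p = 0.00216), which is 4.29-fold, and the fall within a sample number lay between -2.47 and -1.79. After quantile normalization the ratio fell by 0.81 (SE 0.21), with the same exact p of 0.00216. After cyclic loess, which removes differences between arrays that depend on level, the change was -0.27 (SE 0.23) and no longer passed, at an exact permutation p of 0.305. The fall of AT1G74470 relative to CHLM was therefore seen with single scaling factors and with quantile normalization, but did not pass after cyclic loess. With adjacent sample numbers averaged, the deposited ratio likewise had an exact p of 0.1.

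**Figure D2:**
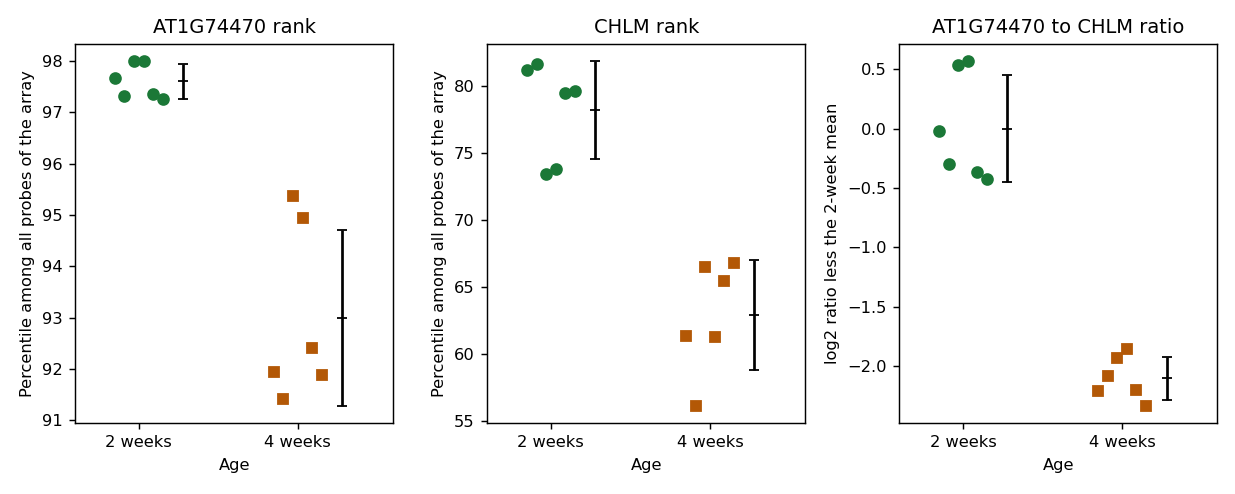
Percentile rank of AT1G74470 and of CHLM among all probes of each array, and the within-array log2 ratio of AT1G74470 to CHLM in the deposited intensities less its 2-week mean, for the 6 samples of each age, with bars for the mean and SD. All 6 samples at 4 weeks lie below all 6 at 2 weeks in each panel, and the mean ratio fell by 2.10 on the log2 scale. The vertical axes do not start at 0.

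Scaling set the size of the fall in AT1G74470 but not its direction. The log2 fold change was -3.03 (limma adjusted p = 2.71e-09) under median centring, with 31.1% of tested probes called lower, and -2.77 (adjusted p = 9.72e-09) under scaling to the 75th percentile, with 26.4% called lower. It was -1.33 (adjusted p = 3.13e-06) in the deposited values and -0.90 (adjusted p = 2.91e-04) after cyclic loess, with 30.3% called lower. As folds, these were 8.20, 6.82, 2.52 and 1.86. CHLM was called lower under the same scalings apart from the deposited values, at -0.93 with median centring (limma adjusted p = 8.95e-05), -0.67 with the 75th percentile (adjusted p = 0.00101) and -0.63 with cyclic loess (adjusted p = 0.00272). The median change of all tested probes was 0.14 under median centring, 0.40 under the 75th percentile and 0.075 under cyclic loess. With adjacent sample numbers averaged, both genes were still called lower in normalized intensity, as were 25.5% of tested probes, CHLM at a limma adjusted p of 0.0266 (SE 0.19) and AT1G74470 at 0.00376 (SE 0.25).

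**Figure D3:**
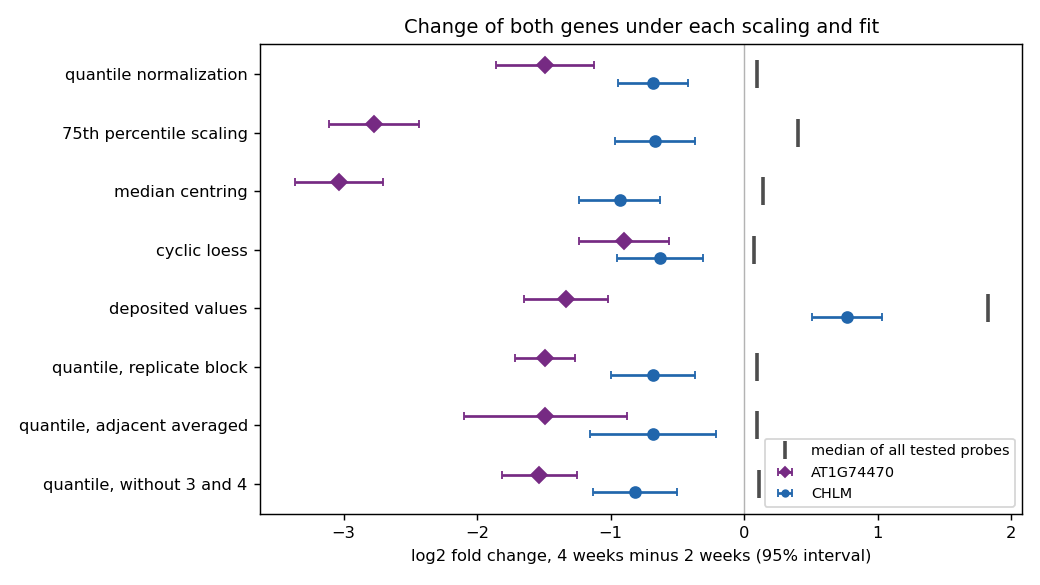
Log2 fold change of AT1G74470 (diamonds) and CHLM (circles), 4 weeks minus 2 weeks, with 95% intervals from limma, under 5 scalings and 3 other fits of the quantile-normalized values, with a vertical tick at the median of all tested probes. AT1G74470 lies below 0 throughout, from -3.03 to -0.90, and CHLM lies above 0 at 0.77 in the deposited values alone.

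The change of the array as a whole varied with brightness. In the deposited values the median log2 fold change was -1.43 for the brightest 1% of tested probes and 2.63 for the dimmest 25%, so each gene was set beside probes of its own brightness. AT1G74470 lay among the brightest 1% to 5% of tested probes by mean normalized level, 119 in number. Of these, 45.4% were called lower and 46.2% higher, with a median log2 fold change of 0.22 after normalization and 0.25 in the deposited values. CHLM lay among the 740 probes between the brightest 25% and the brightest 50%, of which 33.5% were called lower and 34.6% higher. Their median was 0.085 after normalization and 1.74 in the deposited values. Both genes lay below the median of their own range of brightness on both scales. The part of brightness in either change was not tested.

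**Figure D4:**
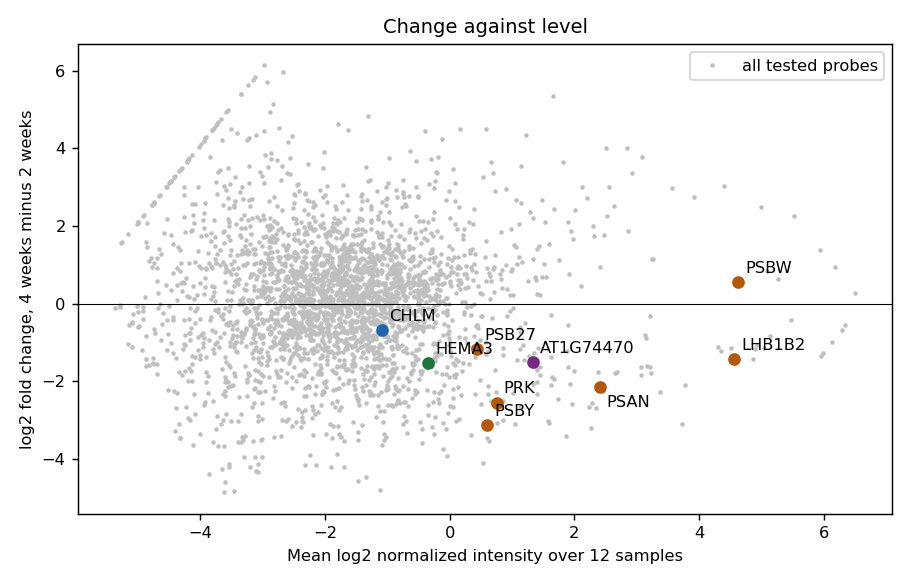
Log2 fold change, 4 weeks minus 2 weeks, against the mean log2 normalized intensity over the 12 samples for all 2961 tested probes (grey), with CHLM, AT1G74470, HEMA3 and the 6 photosynthesis genes marked. AT1G74470, at -1.49, lies among bright probes, and CHLM, at -0.68, lies in the dense middle of the scale.

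The samples of an age were not alike for AT1G74470. Samples 3 and 4 were the highest at both ages, with a mean log2 normalized intensity of 2.38 at 2 weeks against 2.00 in samples 1 and 2 and 1.85 in samples 5 and 6. At 4 weeks the same means were 0.97, 0.35 and 0.43. CHLM differed in this respect, since its samples 3 and 4 were lowest at 2 weeks, at -0.97 against -0.57 and -0.68, and in the middle at 4 weeks, at -1.39 against -1.60 and -1.29. What a sample number stands for is not labelled. Without samples 3 and 4 of both ages, the log2 fold change was -1.53 (SE 0.12) for AT1G74470 and -0.82 (SE 0.14) for CHLM, with limma adjusted p-values of 2.07e-05 and 0.00123.

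Of 39 genes listed for chlorophyll and related porphyrin synthesis, 3 were the single gene of a probe and were tested. These were HEMA3, CHLM and AT1G74470, and 3 of 3 were called lower in normalized intensity, against 31.1% of all tested probes. CHLM and AT1G74470 are the genes chosen for this report, so HEMA3 alone adds to them. The median log2 fold change of the 3 was -1.49, which is the value of AT1G74470, and that of all tested probes 0.098. In the deposited values AT1G74470 alone of the 3 was called lower, against 11% of all tested probes. A further 6 listed genes share a probe with other genes and were not analysed here. HEMA3, of the family of glutamyl-tRNA reductases that carry out the step leading to aminolevulinic acid, had normalized intensities between 0.878 and 1.80 at 2 weeks, with a median of 1.54. At 4 weeks it lay between 0.229 and 0.727, with a median of 0.586 and no overlap between the ages. Its log2 fold change was -1.53 (SE 0.34, limma adjusted p = 0.00188). Samples 3 and 4 were the lowest at both ages, at 0.893 and 0.878 at 2 weeks and 0.250 and 0.229 at 4 weeks, which is opposite to AT1G74470. Without them the change was -1.35 (SE 0.15). In the deposited values HEMA3 did not pass, at -0.63 (SE 0.38, limma adjusted p = 0.135).

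Neighbouring pathways were thinly covered. None of the 10 chlorophyll breakdown genes, the 8 genes of plastid isoprenoid supply or the 7 genes of S-adenosylmethionine supply was tested (0 in each list). Of 8 genes listed for tocopherols and phylloquinone, which use the phytyl group, AT1G78620 was tested. Its normalized intensity ran from 0.0923 to 1.41 at 2 weeks, with a median of 1.01, and from 0 to 0.447 at 4 weeks, with a median of 0.276. The ages overlapped, and the log2 fold change of -2.05 (SE 0.89) did not pass, at a limma adjusted p of 0.0609. With the floor set at the 5th percentile it was -1.74 and passed, at a limma adjusted p of 0.0418. With sample number as a block it passed, at 6.58e-05, and without samples 3 and 4 it was -1.84 (SE 0.22, limma adjusted p = 2.09e-04). With adjacent sample numbers averaged the adjusted p was 0.161. Of 13 carotenoid genes, Z-ISO, the isomerase of zeta-carotene, was tested and did not pass, at 0.29 (SE 0.21, limma adjusted p = 0.250), but was called higher under scaling to the 75th percentile, at 0.63 (limma adjusted p = 0.0470). Its normalized intensity had a median of 0.375 at 2 weeks and 0.371 at 4 weeks. In the deposited values Z-ISO was called higher, at 2.07 (SE 0.26), beside a median shift of 1.82 for all tested probes there.

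**Figure D5:**
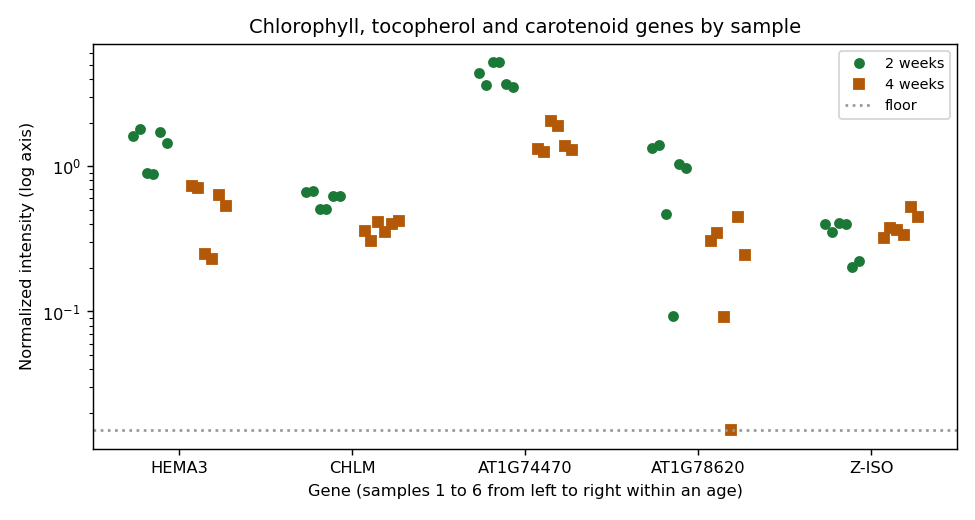
Normalized intensity on a log axis of the 3 tested genes of chlorophyll synthesis and of AT1G78620 and Z-ISO, by sample, with circles for 2 weeks, squares for 4 weeks and a dotted line at the floor of 0.0152, to which the 1 value of 0 was set. The ages are apart for HEMA3, CHLM and AT1G74470 and overlap for AT1G78620 and Z-ISO, and heights of different genes are not comparable.

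Chlorophyll is bound by proteins of the photosystems, and the change of both genes was set against that of the 6 listed genes of the photosynthetic apparatus and of HEMA3 by the same within-array ratio. In the limma fit, 4 of these 6 fell, 0 rose and 2 missed the threshold, beside 31.1% of all tested probes called lower. The median log2 fold change of the 6 genes was -1.79. Their list was put together with the values known. The 2 that did not pass were PSB27, for an assembly protein of photosystem II, at -1.17 (limma adjusted p = 0.0585, or 0.00151 with sample number as a block), and PSBW, for a small subunit of it, at 0.56 (limma adjusted p = 0.109, or 0.00709 with the block). The direction of PSBW depended on the scaling, since it was called higher after cyclic loess, at 1.11 (limma adjusted p = 0.00738), called lower after median centring, at -1.82, and stood at -0.12 in the deposited values. The 14 ratios were chosen after values were seen, p-values were adjusted over the 14, and they were not recomputed after cyclic loess.

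In the deposited values, CHLM rose relative to 6 of the 7 genes by the unpaired test. Its ratio to the antenna gene LHB1B2 rose by 2.63 (SE 0.25), to the photosystem I subunit gene PSAN by 3.09 (SE 0.16), to the phosphoribulokinase gene PRK by 2.86 (SE 0.10), to PSBY, for a small photosystem II protein, by 3.53 (SE 0.62) and to HEMA3 by 1.40 (SE 0.36). Each of these had an adjusted exact p of 0.00379. Its ratio to PSB27 rose by 1.39 (SE 0.51, adjusted exact p = 0.0333), and that to PSBW had a change of 0.89 (SE 0.36) that did not pass, at an adjusted exact p of 0.0551. After quantile normalization the ratios to LHB1B2, PSAN, PRK and PSBY still rose, by 0.74, 1.46, 1.86 and 2.45, with adjusted exact p-values from 0.00606 to 0.0173. Those to PSB27 and HEMA3 no longer passed, at 0.49 and 0.84 (adjusted exact p = 0.510 and 0.0539), and that to PSBW fell by 1.24 (adjusted exact p = 0.0265). The deposited change also varied with brightness, at a median of -1.43 for the brightest 1% of tested probes. For the probes between the brightest 25% and 50%, where CHLM lay, it was 1.74. The part of brightness in the ratios of either gene was not tested.

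AT1G74470 fell less than PSAN and PRK and fell relative to PSBW, which itself was not called, both as deposited and after normalization. Its ratio to PSAN rose by 0.99 (SE 0.20, adjusted exact p = 0.00379) in the deposited values and by 0.66 after normalization (adjusted exact p = 0.0101). Its ratio to PRK rose by 0.76 (SE 0.24, adjusted exact p = 0.0333) and by 1.05 (adjusted exact p = 0.00606). Its ratio to PSBW fell by 1.21 (SE 0.23, adjusted exact p = 0.00379) and had a change of -2.05 (adjusted exact p = 0.00606). Against LHB1B2 the outcome depended on the scale, with a rise of 0.53 (SE 0.14, adjusted exact p = 0.00379) as deposited and a change of -0.064 after normalization (adjusted exact p = 0.718). Against PSBY, PSB27 and HEMA3 the unpaired test did not pass on either scale. The changes there were 1.43 (SE 0.77), -0.72 (SE 0.63) and -0.70 (SE 0.52) as deposited, and 1.64, -0.32 and 0.038 after normalization.

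With samples paired by number, each of the 14 deposited ratios moved one way in 6 of 6 pairs, at an exact sign-flip p of 0.0313, also when adjusted over the 14, the smallest that 6 pairs can give. The ratio of AT1G74470 to HEMA3 then fell in each pair, with changes from -1.20 to -0.33, as did its ratio to PSB27, with changes from -1.07 to -0.40, while its ratio to PSBY rose in each. After quantile normalization the ratio of AT1G74470 to PSBY rose in 6 of 6 pairs (adjusted exact sign-flip p = 0.0438), as did that of CHLM to HEMA3 (adjusted exact sign-flip p = 0.0438). The ratio of AT1G74470 to HEMA3 was then higher in 3 of 6 pairs, at an adjusted exact sign-flip p of 0.938, so its paired fall rests on the deposited scale. The sign-flip test takes the 6 pairs as independent, although adjacent numbers of an age deviated together. It was not repeated with adjacent numbers averaged. In the unpaired test with adjacent sample numbers averaged, none of the 14 ratios can pass, since 3 values an age allow no exact p under 0.1.

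The named genes whose pattern over the 12 samples was most like that of each gene were found by Pearson's r of log2 normalized intensity among 453 genes above the floor on all arrays. The 2 ages form separate clusters, so a high r mostly restates a shared fall, and r after subtraction of the age means is given beside it as a description. For AT1G74470 these were AT2G21530 (r = 0.989, within ages 0.899), AT3G26630 (0.986, within ages 0.886), AT1G54500 (0.979, within ages 0.784), AT1G32730 (0.979, within ages 0.849) and THIC, a gene of thiamine synthesis (0.975, within ages 0.744). All 5 were called lower in normalized intensity, with log2 fold changes from -2.49 for AT1G32730 to -1.12 for AT3G26630. Across all tested probes the share was 31.1%. Genes picked by likeness to a gene that fell are bound to fall, so these calls are no separate result. For CHLM they were AT3G45770 (r = 0.958, within ages 0.792), AT5G47890 (0.945, within ages 0.705), AT1G03660 (0.944, within ages 0.672), AT3G02030 (0.942, within ages 0.631) and AT3G14890 (0.938, within ages 0.615). Their log2 fold changes ran from -2.22 for AT3G02030 to -1.11 for AT3G45770, each called lower, which the choice by likeness likewise entails. Of the 10 genes, 4 were also called lower in the deposited values, AT1G32730, AT3G26630, AT1G54500 and AT3G02030, against 11% of all tested probes. Between CHLM and AT1G74470 themselves, r was 0.82 over the 12 samples and -0.23 within ages, so beyond the shared difference between the ages their samples did not rise and fall together.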

How the data were processed

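The deposited values are linear intensities, 1 for each probe in each sample. The sources used here give no account of the authors' image reading, background correction or scaling. All columns were used (0 left out). Medians of the positive values of the arrays spanned 1.90 on the log2 scale, and quantile normalization was therefore applied. A floor was set at the 1st percentile of the positive normalized values (0.0152) before log2 was taken. A probe was tested if at least 6 of the 12 arrays had it over the floor, which kept 2961, both chlorophyll genes among them, and dropped 477. These add to 3438, since 2 of the 3439 probes report on 1 gene and their mean was used. The change, 4 weeks minus 2 weeks, was tested two-sided in limma 3.58.1 (lmFit, then eBayes, in R 4.3.3), with Benjamini-Hochberg adjustment over all tested probes and a threshold of 0.05. The fit was tried on simulated data. Ranks and within-array ratios were tested on the deposited intensities with exact two-sided permutation tests over the samples.

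Gene names come from the annotation table of the array, in which 692 probes have 1 gene, 870 several, and 1877 are not listed. Of the 692, 690 matched RefSeq (TAIR10.1) by gene identifier, which served for names alone. The build behind the array is unknown here, and no sequence or coordinate is given. The genes, lists and tests were chosen with earlier results of these data known. The genes named beside CHLM and AT1G74470 are the tested list members, 6 photosynthesis genes, and the 5 genes most like each by Pearson's r. The number of arrays limits the precision.

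Samples carry numbers 1 to 6 in both ages. After subtraction of the age means, samples with the same number correlated across genes, which are not independent replicates, at r from 0.16 to 0.44. Each r was above 0.1, and the numbers were therefore taken to pair the samples in the block and sign-flip tests. The main limma fit and the exact permutation tests left this pairing out. Adjacent numbers of an age (1 and 2, 3 and 4, 5 and 6) also deviated together, at r from 0.41 to 0.50 at 4 weeks and 0.01 to 0.31 at 2 weeks, so results are also given with adjacent numbers averaged. Fitted as a random effect, adjacent numbers had a correlation of 0.54, which the main tests left out. Alternatives were other scalings, floors and filters, sample number as a block, adjacent numbers as a random effect, limma's trend and robust options and leaving out samples. Those added after the values were seen are leaving out samples 3 and 4, cyclic loess of the ratio (that of the limma fit was planned), the other within-array ratios, and the deposited values with adjacent numbers averaged.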

Additional observations from a re-analysis of the deposited data

Results flagged for a closer look

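Dixon's test was run on 32 sets of 6 values of 1 age. About 1 set in 20 is expected to have an outlying sample by chance, and here 1 set did. In it, PRK was lowest in 4-week sample 3, at a log2 normalized intensity of -0.78, with the nearest sample at -0.54, a gap of 0.626 of the whole range. Among the sets of CHLM and AT1G74470 values 0 had such a sample.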

How the results depend on the processing

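AT1G74470 was called lower in all 25 alternatives of the limma fit. CHLM was called lower in 23 of 25. Most of the 25 keep the quantile-normalized values and change only the floor, filter, model or samples, so they do not bear on the scaling. CHLM was higher, at 0.77, in the deposited values without normalization and in the same values with adjacent numbers averaged. In the deposited values without averaging, AT3G45770 also turned, to 0.17, and AT5G47890 was called higher, at 0.35 (limma adjusted p = 0.00589). There 4 further genes of the likeness lists lost their call, THIC at -0.23, AT2G21530 at -0.29, AT3G14890 at -0.018 and AT1G03660 at -0.46. With adjacent numbers averaged, AT3G02030 and AT1G54500 lost it too (limma adjusted p = 0.0611 and 0.0878). Leaving out 1 sample at a time gave log2 fold changes from -1.58 to -1.43 for AT1G74470 and from -0.73 to -0.63 for CHLM, with 1837 to 1908 probes called. Without a sample, the ratio of AT1G74470 to CHLM changed by -2.19 to -1.99, CHLM's percentile changed by -16.3 to -13.9 and that of AT1G74470 by -5.08 to -4.29. With adjacent numbers averaged, 3 against 3 cannot reach the threshold, so the ratio (-2.10) and the percentile changes of CHLM (-15.3) and AT1G74470 (-4.60) did not pass. The ratio was -0.27 after cyclic loess; the cause was not tested. Quantile normalization turned the ratio of AT1G74470 to LHB1B2 to -0.064 and to HEMA3 to 0.038, neither called, and that of CHLM to PSBW to -1.24.

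With the replicate block, limma called 2028 probes against 1914, CHLM had an adjusted p of 0.00327 and AT1G74470 of 1.24e-05, and the exact sign-flip p of the ratio and of both percentile changes was 0.0313, the smallest that 6 pairs can give. The pairing changed the call of AT1G78620 and of no other gene of the chlorophyll, tocopherol and carotenoid lists; among the photosynthesis genes it added PSB27 and PSBW. Of the 14 ratios to other genes, the pairing added those of CHLM to PSBW and of AT1G74470 to PSBY, PSB27 and HEMA3 in the deposited values. The paired tests were not repeated with adjacent numbers averaged.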
